A study of Mus musculus with 4 samples.

Results

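The lysyl oxidases and the collagen hydroxylases are enzymes that modify collagen and elastin, and they are described here across 4 mouse samples. The genes were chosen by name: Lox and Loxl1 to Loxl4 (the lysyl oxidases), Plod1 to Plod3 (the lysyl hydroxylases), and P4ha1 and P4ha2 (catalytic subunits of prolyl 4-hydroxylase). They make 10 of the 30458 genes named on the array and have 18 of its 39429 probes, each 60 bases long and printed once. RNA was measured on Agilent whole-genome mouse arrays in 1 colour (Cy3), 1 array per sample. The transfected tissue is ligament-like tissue formed by mesenchymal stem cells after transfection with gene A, a mouse sequence carried by the plasmid pCAGGS, whose promoter is strong in most mammalian cell types. The transgenic ligament came from mice made with the same plasmid, called A transgenic, of the C57BL/6J background. The wild type ligament came from mice of the same C57BL/6J background. The stem cells are the parent mesenchymal stem cells, derived from mouse embryos of the C3H background, the background also given for the transfected tissue. Comparisons of cells with ligament thus change strain and origin at once. The sources used here give no empty-vector cells, no age and no number of animals behind a ligament sample. With a single array in each group, differences are given without p-values and cannot be checked in replicates.

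Collagen chains are hydroxylated in the endoplasmic reticulum before they fold and leave the cell. Prolyl 4-hydroxylases act on prolines and make the triple helix stable at body temperature. Lysyl hydroxylases act on lysines, which then carry sugars or take part in crosslinks. Outside the cell, the copper enzymes of the lysyl oxidase family oxidise lysines and hydroxylysines, and the aldehydes formed crosslink collagen fibrils and elastin. In tendon and ligament these crosslinks are known to give the fibres their strength.

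All 10 genes were well above background in the transfected tissue and in stem cells, 9 in transgenic ligament and 8 in wild type ligament, by the mark of the scanner software. The share of all probe spots so marked was between 49.0% and 56.3% per array. The 75th percentile of the processed signal was 2272 in the transfected tissue, 303 in transgenic ligament, 285 in the wild type ligament and 1165 in stem cells. Levels below are signals divided by this value, so that 1 is the 75th percentile of an array, and differences are on the log2 scale. Levels of different genes come from different probes and are not set against each other. A gene was called higher or lower from 2-fold. The only error these arrays give is the spot noise within an array, measured on probes printed 10 times. The SD of a log2 difference from this source was 0.196 between the transfected tissue and stem cells, 0.145 between the ligaments, 0.210 between wild type ligament and stem cells and 0.119 between the transfected tissue and wild type ligament. It leaves out the spread between cultures and between animals.

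Of 6 tendon and ligament markers, 5 were well above background in the transfected tissue (all but Thbs4), 6 in transgenic ligament, 5 in the wild type ligament (all but Mkx) and 5 in stem cells (all but Kera). The presence of these markers alone thus did not separate ligament from cells, though the log2 of their summed level was 0.53 in the transfected tissue, 5.27 in transgenic ligament, 3.53 in the wild type ligament and 1.38 in stem cells. The ligament arrays also carried markers of other tissue. Of 7 skeletal muscle markers, 2 were well above background in the transfected tissue, 7 in transgenic ligament, 6 in the wild type ligament and 5 in stem cells. The log2 of their summed level was -0.65 in the transfected tissue, 12.12 in transgenic ligament, 12.17 in the wild type ligament and 0.90 in stem cells. In such whole-tissue RNA, fewer cells that make an enzyme and less RNA per cell cannot be told apart. The part of these other tissues in the values below was not tested.

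Most of the genes shared an order of levels. The stem cells had the highest level of 7 of the 10 genes, the transfected tissue that of Loxl1 and Plod2, and transgenic ligament that of Loxl2. Wild type ligament had the lowest level of 8 genes, counting Loxl4, which was not well above background in either ligament. The exceptions were Loxl2, lowest in stem cells (0.472, beside 0.476 in the transfected tissue), and Plod1, lowest in transgenic ligament. At the probes that stand for the genes, the span between the highest and the lowest array was widest for Lox, at 6.17 on the log2 scale. It was narrowest for Loxl2, at 0.58. Between wild type ligament and stem cells alone, the other Loxl2 probes differed by 2.01, at a probe of low signal, and 2.20.

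**Figure D1:**
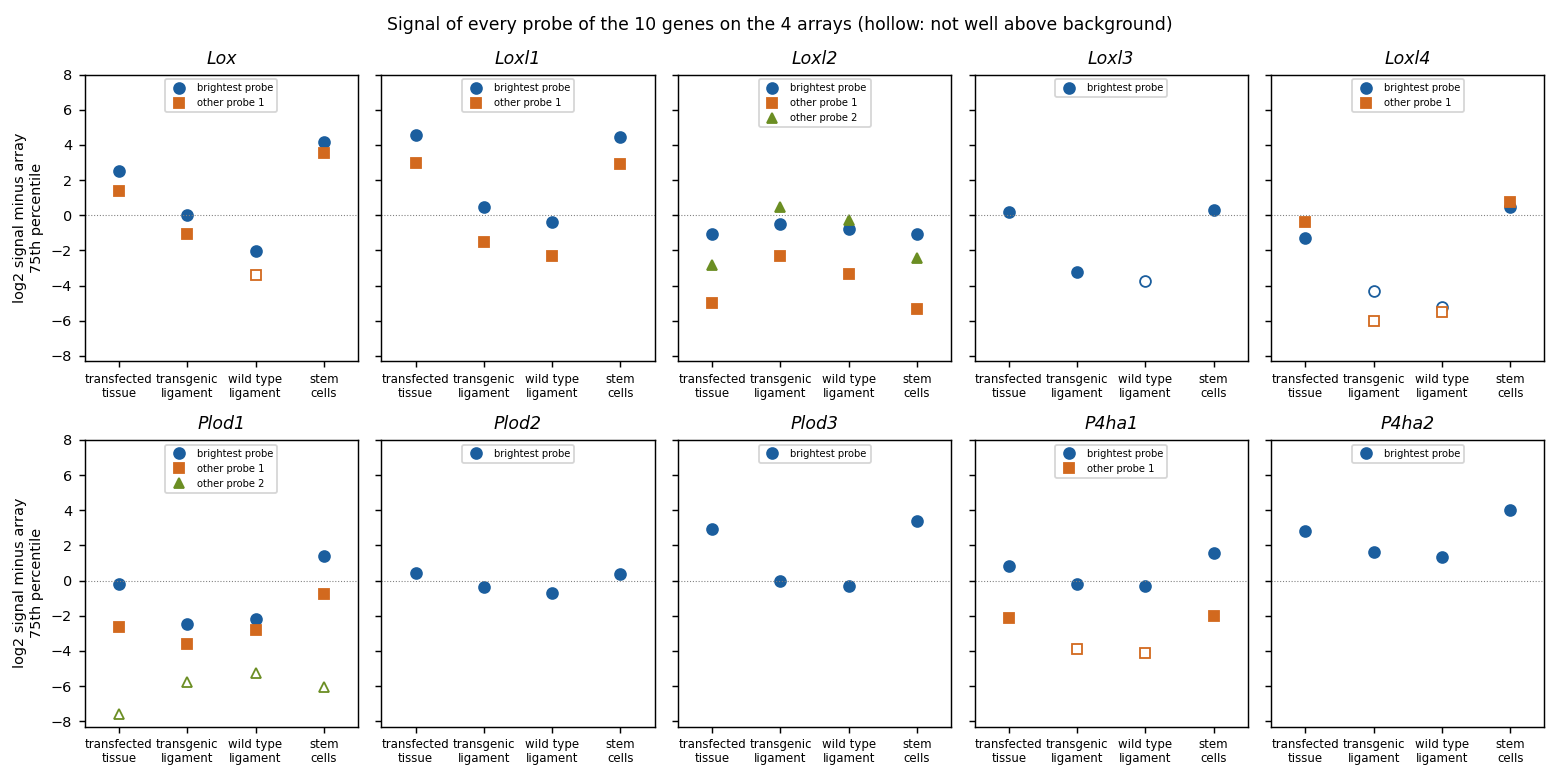
Log2 signal minus the array's 75th percentile (vertical axis) for each of the 18 probes of the 10 genes, on the 4 arrays (horizontal axis). Points are probes, the blue circle is the probe that stands for the gene, and hollow points were not well above background. The 2 Lox probes run in parallel, while the 3 Loxl2 probes differ in how far the ligament arrays lie above the cell arrays.

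Lox, the founding lysyl oxidase, lies on chromosome 18. It was the member that passed 2-fold in opposite directions in the cell pair (transfected tissue and stem cells) and the ligament pair. In the cell pair gene A, transfection and tissue formation cannot be told apart. The level of Lox was 5.78 in the transfected tissue, 1.03 in transgenic ligament, 0.248 in the wild type ligament and 17.9 in stem cells. The 4 levels were all well above background and far apart compared with spot noise. Lox was thus lower in the transfected tissue than in stem cells (log2 difference -1.63) and higher in transgenic than in wild type ligament (2.05). These are 3.09-fold lower and 4.13-fold higher. With normexp background correction the difference between the ligaments was 1.34. The second probe of Lox gave -2.17 for the tissue against stem cells and a difference of at least 2.32 for the ligaments, since wild type ligament was not well above background there. The transfected tissue, although lower than its parent cells, was still 23.3-fold above wild type ligament. Wild type ligament was 72.0-fold below stem cells. With normexp these log2 differences were 3.76 and -5.38, beside 4.54 and -6.17.

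Loxl1 is the family member known for elastic fibre upkeep in mouse. Its level was 23.9 in the transfected tissue, 1.40 in transgenic ligament, 0.760 in the wild type ligament and 22.2 in stem cells. The cell arrays lay together and far above both ligaments. Tissue and stem cells differed by 0.11, less than the spot noise SD. Transgenic ligament was above wild type ligament by 0.88, short of 2-fold. The second Loxl1 probe gave 0.10 and 0.79 for the same comparisons.

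Loxl2 has scavenger receptor domains and is known for crosslinking basement membrane collagen. Its probes disagreed, as did those of Plod1. At the probe that stands for the gene (chr14:70090017-70090076, mm9, plus strand) the level was 0.476 in the transfected tissue, 0.707 in transgenic ligament, 0.586 in the wild type ligament and 0.472 in stem cells, so no array stood apart. At the probe from chr14:70092141-70092200 the difference between wild type ligament and stem cells was 2.01, and at the probe from chr14:70095254-70095313 it was 2.20, against 0.31 at the first. Processed signals at chr14:70092141-70092200 were 28.5 in wild type ligament and 28.9 in stem cells, before division by the 75th percentile. The lowest signals marked well above background on these arrays were 26.9 and 21.1, so this probe was near the floor. The transfected tissue differed from wild type ligament by -1.69 and -2.58 at these probes, against -0.30 at the first. The files do not say which exon or untranslated region a probe lies in. The sequences of the first pair are given because their differences between the same arrays were unlike. Each has 1 forward reading frame without a stop codon.
Loxl2, chr14:70090017-70090076: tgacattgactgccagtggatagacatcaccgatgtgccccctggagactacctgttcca
Loxl2, chr14:70092141-70092200: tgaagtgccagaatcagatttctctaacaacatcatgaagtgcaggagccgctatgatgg

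Between the arrays with and without gene A the Loxl2 probes differed less from each other. In the transfected tissue against stem cells they gave 0.01, 0.32 and -0.38, none past 2-fold. In transgenic against wild type ligament they gave 0.27, 1.00 and 0.73, the middle one just past 2-fold and from the probe near the floor.

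Loxl3, needed in mouse for palate and spine development, and Loxl4 had their higher signals on the cell arrays. Loxl3 had a level of 1.16 in the transfected tissue, 0.106 in transgenic ligament, 0.0756 in the wild type ligament, where it was not well above background, and 1.22 in stem cells. Tissue and stem cells differed by -0.08, less than the spot noise SD, and the ligaments differed by at least 0.17. Wild type ligament was at least 12.9-fold lower than stem cells, and the transfected tissue at least 12.3-fold above wild type ligament. These bounds depend on the background correction, since on the log2 scale they were -3.69 and 3.62, and with normexp -2.34 and 2.21. Loxl4 had a level of 0.411 in the transfected tissue, 0.0508 in transgenic ligament, 0.0270 in the wild type ligament and 1.40 in stem cells, and was not well above background in either ligament. The tissue was 3.41-fold below stem cells at the probe that stands for Loxl4, a log2 difference of -1.77, and its second probe gave -1.14. The second probe was the brighter in the tissue and in stem cells, with processed signals of 1708 and 1928 beside 933 and 1633. The first stands for the gene through its mean over all 4 arrays, ligament included. With normexp, where the probe is chosen anew, Loxl4 was at -1.04, close to the 2-fold limit. No difference between the ligaments can be given for Loxl4. The transfected tissue was at least 4.37-fold above wild type ligament, and wild type ligament at least 14.9-fold below stem cells. The bound for wild type ligament against the cells, -3.90 on the log2 scale, was -2.69 with normexp.

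Among the lysyl hydroxylases, Plod1, whose enzyme acts on helical lysines, was the member that was lower after transfection. Its level was 0.880 in the transfected tissue, 0.178 in transgenic ligament, 0.220 in the wild type ligament and 2.62 in stem cells. The tissue was 2.97-fold lower than stem cells (log2 difference -1.57, and -1.85 at its second probe), while the ligaments differed by -0.30. The third probe was not well above background on any array. Against wild type ligament the Plod1 probes parted, since the tissue was higher by 2.00 at one and by 0.16 at the other. With normexp the first was 1.19. The first of these, on chromosome 4, has 60 bases that span 1421 bases of the genome (mm9), so it is split there. The transgenic ligament differed from the wild type by -0.80 at the second. Processed signals at the second were low, at 25.2 in transgenic and 41.3 in the wild type ligament. The lowest signals marked well above background on these arrays were 20.3 and 26.9. The sequences of this pair of probes are given because their differences from ligament were unlike, both from the minus strand.
Plod1, chr4:147290037-147291457: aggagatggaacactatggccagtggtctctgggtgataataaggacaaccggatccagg
Plod1, chr4:147302568-147302627: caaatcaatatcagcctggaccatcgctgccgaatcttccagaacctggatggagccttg

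Plod2 encodes the lysyl hydroxylase of the collagen telopeptides, whose hydroxylation decides which kind of crosslink forms. Its level was 1.37 in the transfected tissue, 0.782 in transgenic ligament, 0.621 in the wild type ligament and 1.31 in stem cells. The cell arrays were close, with a difference of 0.06, and so were the ligaments, with 0.33. Plod3, whose enzyme also attaches sugars to hydroxylysine, had a level of 7.51 in the transfected tissue, 0.992 in transgenic ligament, 0.810 in the wild type ligament and 10.3 in stem cells. The tissue lay below stem cells by a log2 difference of -0.45, within 2-fold. Plod3 differed by 0.29 between the ligaments. Wild type ligament was 12.7-fold below stem cells for Plod3 and 2.11-fold below them for Plod2. The transfected tissue was 9.27-fold above wild type ligament for Plod3 and 2.20-fold above it for Plod2.

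The prolyl 4-hydroxylase subunits ran nearly in parallel. P4ha1, the main catalytic subunit in most cells, had a level of 1.79 in the transfected tissue, 0.886 in transgenic ligament, 0.792 in the wild type ligament and 2.96 in stem cells. P4ha2, the subunit prominent in skeletal tissues, had a level of 7.02 in the transfected tissue, 3.04 in transgenic ligament, 2.54 in the wild type ligament and 15.9 in stem cells. Both were thus highest in stem cells, with the tissue between stem cells and ligament. The log2 difference of the tissue from stem cells was -0.73 for P4ha1, within 2-fold, and -1.18 for P4ha2. The second P4ha1 probe gave -0.15. The ligaments differed by 0.16 for P4ha1 and by 0.26 for P4ha2. The transfected tissue was 2.26-fold above wild type ligament for P4ha1 and 2.76-fold above it for P4ha2. Centred on their own means, the levels of P4ha1 and P4ha2 were closer to each other over the 4 arrays (Euclidean distance 0.57 on the log2 scale) than to those of any other of the 8 members well above background on all arrays.

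**Figure D2:**
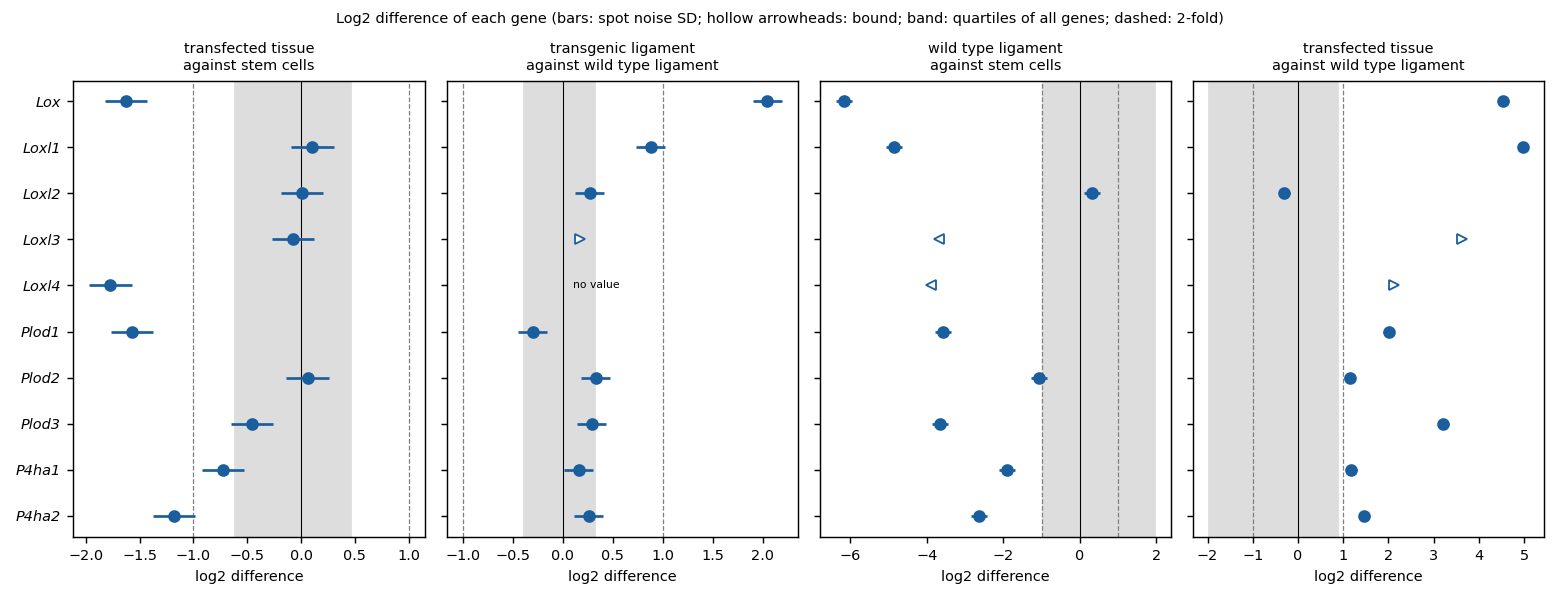
Log2 difference of each gene (horizontal axis) in the 4 comparisons, first-named group minus second. Bars are the SD from spot noise, hollow arrowheads are bounds, the grey band runs between the quartiles of all genes and dashed lines mark 2-fold. Lox lies left of the 2-fold line in the first panel and right of it in the second.

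The transfected tissue was set against stem cells to ask what accompanied gene A and tissue formation. Of the 10 genes, 4 were lower (Loxl4, Lox, Plod1 and P4ha2) and 0 higher, where 13.3% of all 17890 genes compared were lower, 11.0% higher and 24.3% either. The median of the 10 log2 differences was -0.59, with -0.08 over all genes. At the level of probes, 7 of the 17 with a value were lower and 0 higher. The 7 are probes of the same 4 genes, and the share over all probes was not counted. Of the lysyl oxidases 2 of 5 were lower, of the lysyl hydroxylases 1 of 3 and of the prolyl 4-hydroxylases 1 of 2. Markers of other cell types also differed between these arrays. Of 4 adipocyte markers with a value 3 were higher in the tissue, Cfd by at least 5.71 and Adipoq by at least 4.47 on the log2 scale, and 3 of 5 muscle markers with a value were lower. Their part in the lower enzyme genes was not tested.

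Transgenic ligament was set against wild type ligament to ask what gene A does in the animal. Of 9 genes with a value, Lox alone was called higher and 0 were lower, where 6.29% of all 16454 genes compared were higher, 7.04% lower and 13.3% either. The median was 0.27, with -0.03 over all genes. Loxl1 at 0.88 was the next highest, and Plod1 at -0.30 was the only negative value. Markers of other cell types differed between the same arrays. All 7 neutrophil markers were lower, led by Ltf at -2.97, as were all 5 erythroid markers compared. Of the markers compared, 5 of 6 bone, 5 of 6 epidermal and 5 of 6 tendon and ligament markers were higher, with Mepe at 2.76, Lor at 2.98 and Tnmd at 2.45. Their part in the Lox difference was not tested.

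The last pair of comparisons, of the wild type ligament with stem cells and of the transfected tissue with the wild type ligament, places the tissue beside native ligament. In wild type ligament 9 of the 10 genes were lower than in stem cells, with log2 differences of -6.17 for Lox and -4.87 for Loxl1, and 0 were higher, where 24.5% of all 16628 genes compared were lower, 37.7% higher and 62.2% either. The median was -3.62, with 0.30 over all genes. In the transfected tissue 9 of the 10 were higher than in wild type ligament, where 22.9% of all 16533 genes compared were higher, 39.7% lower and 62.6% either. The median was 2.06, with -0.43 over all genes, and Loxl1 was furthest, at 31.4-fold. Loxl2 was the member within 2-fold in both, at the probe that stands for it. Its other probes gave 2.01, at the probe near the floor, and 2.20 in wild type ligament against stem cells. In the transfected tissue against wild type ligament they gave -1.69 and -2.58. The 2 comparisons share the wild type array, so their values are not separate observations, and the stem cell array is likewise shared with the first comparison. The 6 skeletal muscle markers with a value had a median log2 difference of 12.59 between the wild type ligament and stem cells, and of -13.97 between the transfected tissue and the wild type ligament. Their part in these results was not tested.

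The substrates of these enzymes did not all follow them. Of 8 collagen and elastin genes, 4 were lower in the transfected tissue than in stem cells, beside 13.3% of all genes, and 0 higher. The 4 were elastin (Eln, -1.82), the fibril-initiating Col5a1 (-1.27), Col1a1 (-1.07), the main chain of fibrillar type I collagen, and Col2a1 (-1.04) of cartilage collagen. Col1a2 was at -0.18 and Col3a1 at -0.31. In transgenic against wild type ligament, Col2a1 (2.16) and Col1a2 (1.02) of 7 with a value were higher and 0 were lower. Over all genes 6.29% were higher and 7.04% lower. In wild type ligament against stem cells, 3 of 8 were lower and 0 higher, and the median was -0.78, beside -3.62 for the 10 enzymes. Over all genes 24.5% were lower and 37.7% higher. In the transfected tissue against wild type ligament, 3 of 8 were higher, Col5a1 (3.34), Col2a1 (2.37) and Eln (at least 1.23). Col1a1 (-1.88) was lower. The median of the 8 was 0.58, beside 2.06 for the 10 enzymes. Over all genes 22.9% were higher and 39.7% lower in that comparison.

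Of 6 proteins that help lysyl oxidases to act, the elastic fibre scaffolds Fbln5 (-1.37) and Efemp2 (-1.06) were lower in the transfected tissue than in stem cells, and periostin (Postn, 1.27), which is known to assist Lox activation, was higher. The copper transporter Atp7a (0.22), fibronectin (Fn1, -0.11) and fibromodulin (Fmod, -0.07) lay within 2-fold. In the ligaments, Fmod, a collagen-binding proteoglycan that binds Lox, was higher in the transgenic sample by 2.15, and the other 5 lay between -0.06 and 0.51.

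**Figure D3:**
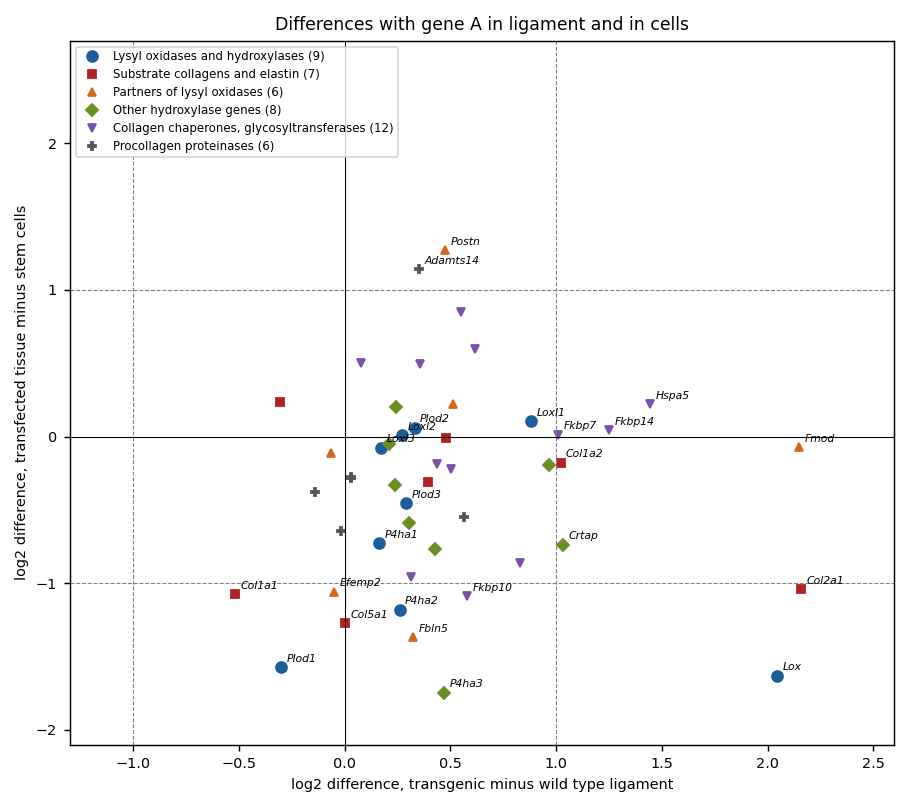
Log2 difference of the transfected tissue minus stem cells (vertical axis) against that of transgenic minus wild type ligament (horizontal axis). Each point is 1 gene of the groups in the legend (number with both values in brackets, bounds at their value), and dashed lines mark 2-fold. Hypoxia-inducible genes are not plotted. Of the genes shown, Lox and Col2a1 lie in the lower right corner, past 2-fold on both axes, and none lies in the upper left corner.

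Other hydroxylase genes and further genes of collagen modification were described in the same way. The first group has 8 genes outside the 10, counting P4htm and partner and subunit genes such as Crtap and P4hb. P4ha3, another prolyl 4-hydroxylase subunit, was lower in the transfected tissue than in stem cells (-1.75), and the other 7 lay within 2-fold, among them P4hb (-0.77), the shared beta subunit of prolyl 4-hydroxylase. In the ligaments Crtap (1.03), a partner of prolyl 3-hydroxylase, was higher in the transgenic sample and the other 7 were within 2-fold. Of 12 collagen chaperones and glycosyltransferases, Fkbp10 (-1.09), which lysyl hydroxylase 2 needs for telopeptide hydroxylation, was lower in the transfected tissue. In transgenic ligament, 3 of the 12 were higher: the chaperones Hspa5 (1.44), Fkbp14 (1.25) and Fkbp7 (1.01). Of 6 procollagen proteinases and enhancers with a value, Adamts14 (1.14) was higher in the transfected tissue, and in the ligaments 0 were past 2-fold. Bmp1, whose product cleaves and activates the Lox precursor, was at -0.28 in the tissue and 0.03 in transgenic ligament. Over all genes, 13.3% were lower and 11.0% higher in the transfected tissue than in stem cells. Between the ligaments, 6.29% were higher and 7.04% lower in the transgenic sample.

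Ligament was also compared with cells for these groups. In wild type ligament against stem cells 5 of 7 other hydroxylase genes, 8 of 11 chaperones and glycosyltransferases, 4 of 6 procollagen proteinases and enhancers and 4 of 6 partners of lysyl oxidases were lower, beside 24.5% of all genes. Of the substrates 3 of 8 were lower and 0 higher, and of the hypoxia-inducible genes 8 of 18 were lower and 6 higher. Over all genes 37.7% were higher. Among the lower genes of the first 4 groups were P3h3 (-4.58), a prolyl 3-hydroxylase, Crtap (-4.77), Fkbp10 (-4.30), Pcolce2 (-3.99), Fbln5 (-5.28) and Efemp2 (-4.91). Of the first 4 groups, the genes higher in wild type ligament were Tmem38b (3.91), an ion channel of the endoplasmic reticulum, Fmod (2.37) and the proteinase gene Tll1 (1.42). In the transfected tissue against wild type ligament 4 of 7, 8 of 11, 5 of 6 and 5 of 6 genes of the same 4 groups were higher, beside 22.9% of all genes, and Tmem38b (-3.42), Fmod (-2.44) and Tll1 (-1.80) were lower.

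**Figure D4:**
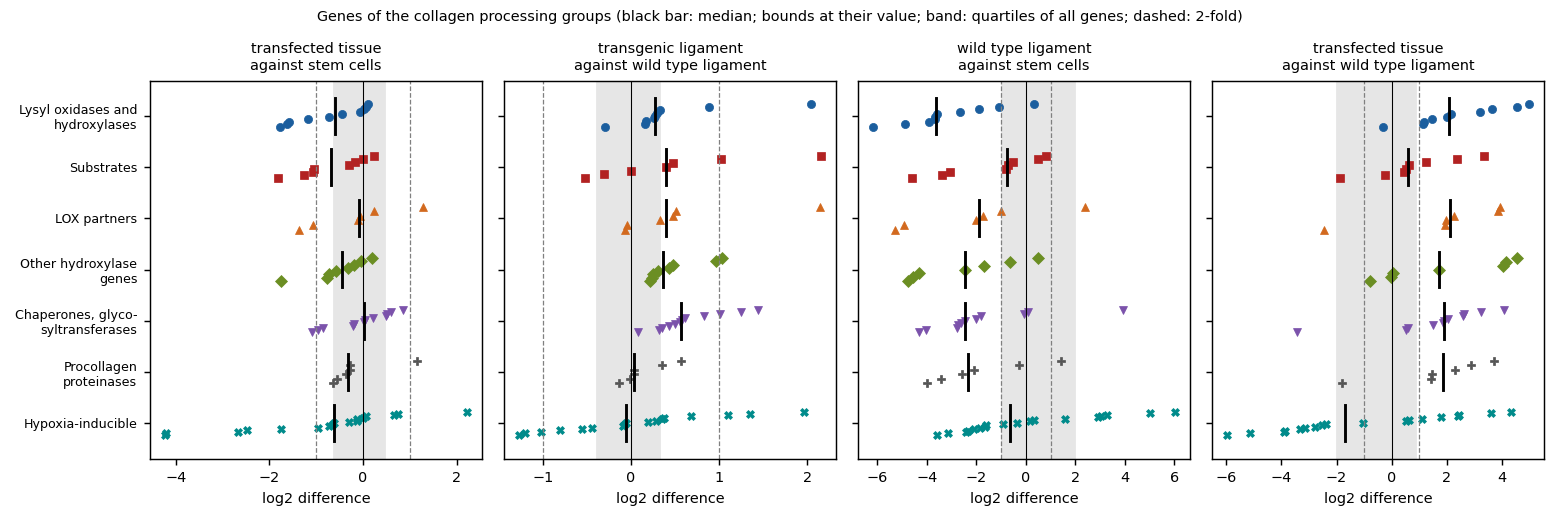
Log2 differences (horizontal axis) of the genes of each group in the 4 comparisons, first-named group minus second. Points are genes, black bars are medians, the grey band runs between the quartiles of all genes and dashed lines mark 2-fold. The 10 lysyl oxidase and hydroxylase genes have medians of -0.59, 0.27, -3.62 and 2.06 from left to right.

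Several of the 10 genes are known targets of the hypoxia-inducible factors, among them P4ha1, P4ha2, Plod2 and Lox. Of 17 other hypoxia-inducible genes with a value, 5 were lower in the transfected tissue than in stem cells, beside 13.3% of all genes. Only 1 was higher, beside 11.0%. The lower ones were the carbonic anhydrase Car9 (-4.23), Ankrd37 (-4.20), Pdk1 (-2.67), Pgk1 (-2.48) and Bnip3 (-1.75), and the higher one was Ero1a (2.22), an oxidase of the endoplasmic reticulum. The glucose transporter gene Slc2a1 (0.07) and the vessel growth factor gene Vegfa (0.66) lay within 2-fold. In transgenic ligament 3 of 17 were higher and 3 lower than in the wild type, beside 6.29% and 7.04% of all genes. The median of the 17 was -0.06. Ankrd37 was among the higher ones (1.11), so that, like Lox, it passed 2-fold in opposite directions in the cell and ligament pairs. Whether the lower P4ha2 and Lox go with the lower hypoxia genes was not tested.

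RefSeq promoter windows (GRCm38.p6, 250 bases before to 50 after the start site) were at hand for 5 of the 10 genes. They were searched on both strands for ACGTG and GCGTG, the core letters that hypoxia-inducible factors bind. ACGTG overlaps its own reverse complement where CACGTG occurs, and the reverse complement of GCGTG is CACGC. Of all 32851 windows, 43.8% held at least 1 match and 20.6% at least 2. P4ha2 and Plod3 had 4 matches each, P4ha1 had 3, Plod1 had 2 and Loxl4 had 1. The windows of P4ha1, P4ha2 and Plod1 are printed, with matches on either strand in capitals. They show the pair of prolyl 4-hydroxylase subunits whose levels ran nearly in parallel, and the lysyl hydroxylase called lower in the transfected tissue. A match is only a description of the letters.
P4ha1, chr10:59323046-59323345, plus strand: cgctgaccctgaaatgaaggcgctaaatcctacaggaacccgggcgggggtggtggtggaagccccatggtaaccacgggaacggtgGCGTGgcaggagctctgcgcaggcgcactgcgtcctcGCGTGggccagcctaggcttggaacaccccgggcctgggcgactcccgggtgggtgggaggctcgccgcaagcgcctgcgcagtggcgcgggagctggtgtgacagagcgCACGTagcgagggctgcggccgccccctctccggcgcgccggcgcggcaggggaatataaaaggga
P4ha2, chr11:54100674-54100973, plus strand: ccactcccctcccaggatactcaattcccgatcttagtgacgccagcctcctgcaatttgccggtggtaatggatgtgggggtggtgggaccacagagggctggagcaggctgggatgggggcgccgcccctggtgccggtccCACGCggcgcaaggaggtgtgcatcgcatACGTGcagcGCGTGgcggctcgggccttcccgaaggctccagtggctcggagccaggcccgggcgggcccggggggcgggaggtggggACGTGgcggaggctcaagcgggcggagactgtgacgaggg
Plod1, chr4:147936727-147937026, minus strand: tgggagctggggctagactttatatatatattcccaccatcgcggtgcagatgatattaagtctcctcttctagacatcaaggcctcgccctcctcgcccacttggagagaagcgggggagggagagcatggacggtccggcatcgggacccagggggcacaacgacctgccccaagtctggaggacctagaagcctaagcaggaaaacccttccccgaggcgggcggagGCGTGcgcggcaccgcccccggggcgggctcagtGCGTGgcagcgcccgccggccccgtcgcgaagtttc

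Among the 13021 genes well above background on all 4 arrays, those with the pattern most like a member were found by the Euclidean distance between mean-centred log2 levels over the 4 arrays. The closest to Lox was Kdelr3, a receptor that returns proteins to the endoplasmic reticulum, at 0.19, followed by Map6 at 0.63 and the cholesterol synthesis gene Sqle at 0.71. The closest to P4ha2 were Fam126a (0.05), the mevalonate kinase gene Mvk (0.08) and S100a6 (0.09), and the closest to Plod2 was Dhrs7 (0.06). The closest to Plod1 was Dok1 (0.20), to P4ha1 Msto1 (0.07) and to Loxl2 Top1, a DNA topoisomerase gene (0.03). Over 4 arrays such distances only describe likeness. Of the 8 members well above background on all 4 arrays, the nearest to Lox was Loxl1, at 1.49, and Loxl3 and Loxl4 were not compared.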

How the data were processed

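Each sample has 1 scanner file, and all 4 arrays lie on the same slide, per the file headers. Per the file headers, its values are spot intensity on a linear scale, as processed signal after background subtraction and detrending, from version 10.7.1.1 of Feature Extraction, without scaling between arrays, and probe positions are on mm9. The submitters' processing notes name version 9.5.1.1, and which is right is unknown. Linear intensity is also what the deposited value table gives, with a median of 49.7 in each column. Its scale and centring are not stated, and columns were matched to scanner files by rank over probes, and each fitted that of its own sample best. Probe marks such as well above background are those of the software, per the file headers.

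From the 43020 non-control spots, the 155 to 281 per array marked as non-uniform or population outliers were dropped. None was saturated. Signals were divided by the 75th percentile of their array, taken to log2 and averaged over the spots of a probe. Probes were named through their RefSeq accession where possible (26761 of 39429) and otherwise by the symbol in the file. For each gene the probe brightest on average stands for it. If the dimmer of a pair of arrays did not reach well above background, only a bound is given, taken from that array's lowest signal with the mark or from the probe itself if brighter. No test was possible with 1 array per group, and the number of arrays limits the precision. No protein sequences were used, so a planned protein comparison was not made. The calculation was tested on simulated data, made from the stem cell array with spot noise and with changes on bright probes. Changes on dim probes and arrays of unlike 75th percentile were not simulated. The genes described and the gene lists were chosen with earlier results of these data known. The genes named are the 10 members, genes of the lists, at most 2 per cell type list (the most different) and the 3 nearest in pattern. Software was Python 3.11.15, pandas 2.3.3, and limma 3.58.1 in R 4.3.3. Alternatives were normexp (offset 50), quantile normalization, another centring, the deposited table, the mean of all probes and genes measured on both arrays.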

Additional observations from a re-analysis of the deposited data

Results flagged for a closer look

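Lox differed in direction between the cell pair and the ligament pair. It was lower in the transfected tissue than in stem cells (log2 difference -1.63) and higher in transgenic than in wild type ligament (2.05), so that the difference between the pairs was -3.68. It stands out because it passed 2-fold in opposite directions in these pairs, and it was the only one of the 10 genes to do so. Outside the 10 genes, Col2a1 (-1.04 and 2.16) and Ankrd37 (-4.20 and 1.11) did so too. The share of all genes that did so was not counted. With normexp background correction the ligament difference of Lox was 1.34. With 1 array per group this difference was not tested.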

How the results depend on the processing

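There were 6 alternatives. Of these, 5 changed 1 choice each, and the deposited table replaced the whole processing. No paired analysis was possible because the groups have 1 array each and no replicate numbers in the labels. The counts of genes past 2-fold stayed within 1.5 times of those reported, at 4 of 10 in the transfected tissue against stem cells and 1 in transgenic against wild type ligament under each alternative. Of 39 differences of single genes, 35 kept their call under all alternatives. With the mean of its probes, Loxl2 was at -1.52 in the transfected tissue against wild type ligament and 1.51 between the wild type ligament and stem cells. Plod2 came within 2-fold in the same comparisons, at 0.92 with normexp and at most -0.84 in the other, where centring also ended the call. Lox stayed past 2-fold in all 4 comparisons. In the transfected tissue against wild type ligament, quantile normalization gave 5.66 for Loxl1 and 2.77 for Loxl4, the deposited table gave 4.42 for Loxl3 and 2.96 for Loxl4, and the mean of its probes gave 1.08 for Plod1. Between the wild type ligament and stem cells, the deposited table gave -4.50 for Loxl3 and -4.71 for Loxl4, and Plod1 was at -2.69 with normexp and -2.79 with the mean of its probes. The median in wild type ligament against stem cells was -2.69 with normexp, -3.88 with the deposited table, -3.23 with the mean of all probes and -3.11 with genes measured on both arrays. In the transfected tissue against wild type ligament it was 1.62 with normexp, 2.54 with quantile normalization, 2.73 with the deposited table and 1.73 with genes measured on both arrays. The cause was not tested. Scaling also moved the median of all genes, by 0.55 in the transfected tissue against wild type ligament and by -0.42 in wild type ligament against stem cells with quantile normalization. Relative to all genes the 10 then lay at 2.42 and -3.70. The share of higher calls among all calls was 33.3% with normexp and 45.1% as reported in the transfected tissue against stem cells, with 1082 and 1959 genes higher. In transgenic against wild type ligament normexp gave 409 higher and 575 lower genes, beside 1035 and 1158 as reported, and genes measured on both arrays gave 683 and 784. With quantile normalization the share of higher calls was 50.6%, beside 60.6% as reported, for the wild type ligament against stem cells, and 49.6%, beside 36.6% as reported, in the transfected tissue against wild type ligament. The deposited table gave 49.7% and 50.4% there. Loxl3 and Loxl4 are limited by signals not well above background in ligament.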
